A study of Canis lupus familiaris with 28 samples.

Results

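The genes *CDK2*, *MCM9*, *RECQL4* and *ASF1A* act in DNA replication and repair, and their RNA was followed through canine histiocytic sarcoma (HS), a cancer that arises from dendritic cells or macrophages. The 4 genes were chosen by symbol from the 32704 Ensembl gene identifiers counted, with the symbols taken from the gene lists that accompany the study, and all 4 passed the filter on low counts in every comparison. In the count tables, made on the CanFam3.1 genome, they are ENSCAFG00000000082 (*CDK2*), ENSCAFG00000000938 (*MCM9*), ENSCAFG00000001569 (*RECQL4*) and ENSCAFG00000000939 (*ASF1A*).

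Before a cell divides it must copy its genome once, and the copying has to be started, protected and repaired. CDK2 is the kinase that drives entry into and passage through S phase together with cyclins E and A. RECQL4 is a RecQ family helicase needed for the start of replication and for repair of broken DNA. MCM9 is a relative of the replicative MCM helicase that works with MCM8 in homologous recombination. ASF1A is a chaperone that carries histones H3 and H4 to newly made DNA. RNA of genes that serve S phase is in general more plentiful in tissues with many dividing cells.

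RNA was sequenced from the tumors of 18 Bernese Mountain Dogs (BMDs), 15 labelled HS and 3 labelled hemophagocytic HS (HHS), a subtype in which the tumor cells engulf blood cells. The tumors came from the lung (6), liver (4), thorax (3), spleen (2), limb (2) and a lymph node (1). The controls were blood of 3 unaffected BMDs and 1 lung, 1 spleen and 1 liver of unaffected German Shepherd Dogs. In culture, the HS lines BD and OD from BMDs and PJ from a Rottweiler were set beside DC3F9, with 1 library for each. DC3F9 is a strain of dendritic cells grown from the blood monocytes of 1 mongrel dog with GM-CSF and IL-4. Its label marks the cells as unstimulated (unstim).

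The libraries held 82007857 to 180801439 counted reads. Levels are given as CPM, the counts of a gene scaled to a common total of counted reads per library, and 3 counts correspond to 0.0166 to 0.0366 CPM, a limit that covers counting error only. Fold changes (log2FC) come from edgeR's quasi-likelihood test on counts scaled by TMM factors, with p-values adjusted over all genes tested. The standard error (SE) given with them was derived from the test, as the absolute log2FC divided by the square root of its F statistic. An adjusted p under 0.05 is called passing the test, and the limits the study set for all tumors against controls, an absolute log2FC over 1.5 and an adjusted p under 0.0005, are stricter. They are applied here to Benjamini-Hochberg values, whereas the study's methods name the Benjamini-Yekutieli adjustment, which gives larger adjusted p. The liver control, whose TMM factor was 0.368, entered no main test. The authors left it out likewise. The deposited column names of blood start with a different code from those of the tumors and the remaining controls. The labels do not say what this code stands for, and it may mark a sequencing batch. Among the controls, the code, breed and tissue cannot be told apart. In tissue, fewer cells of a type and less RNA per cell cannot be told apart either.

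*RECQL4* was the gene of the 4 that separated tumors from controls. Its level was lowest in the liver tumor HS46 at 1.64 CPM, had a median of 4.45 CPM over the 18 tumors and was highest in the lung tumor HS52 at 8.998 CPM. The blood controls had 0.288, 0.374 and 1.53 CPM, the spleen control 0.821 CPM and the lung control 1.05 CPM. Every tumor therefore lay above every control, although the lowest tumor and the highest control were close to each other. Among all genes tested, 1.16% stood apart in this way with the tumors higher.

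The log2FC of *RECQL4* in all tumors against the 5 controls was 2.73 (SE 0.478, adjusted p = 2.9e-04, edgeR), and the mean CPM was 5.94 times that of the controls. It was the only one of the 4 genes past both stricter limits, which 0.865% of all genes tested passed with the tumors higher. With the Benjamini-Yekutieli adjustment, added after seeing the data, its adjusted p was 0.00305 in edgeR, which misses the limit of 0.0005, and 1.0e-09 in DESeq2, which passes it. At an adjusted p under 0.05, 12.96% of all genes were higher in tumors and 14.2% were lower. The log2FC kept its direction and its adjusted p under 0.05 in the 17 alternatives run, from 2.49 to 3.09, while its side of the 0.0005 limit depended on the controls, the scaling and the adjustment. With blood controls alone it was 2.82 (adjusted p = 0.00165), where 19.9% of genes passed higher. With spleen and lung alone it was 2.59 (adjusted p = 0.01996), where 1.96% did.

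*RECQL4* was also higher in tumors than in the unaffected organ they grew in, where the tissue can be matched. In the lung, the 6 tumors ranged from 1.75 CPM over a median of 3.67 CPM to 8.998 CPM, and the lung control had 1.05 CPM. In the spleen, HS29 had 3.75 CPM and HS51 had 6.81 CPM against 0.821 CPM in the spleen control. In the liver, the tumors had 1.64, 2.87, 3.94 and 7.23 CPM against 0.160 CPM in the liver control, which rests on 29 counts. Each organ has 1 control, so these are values without a test.

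**Figure D1:**
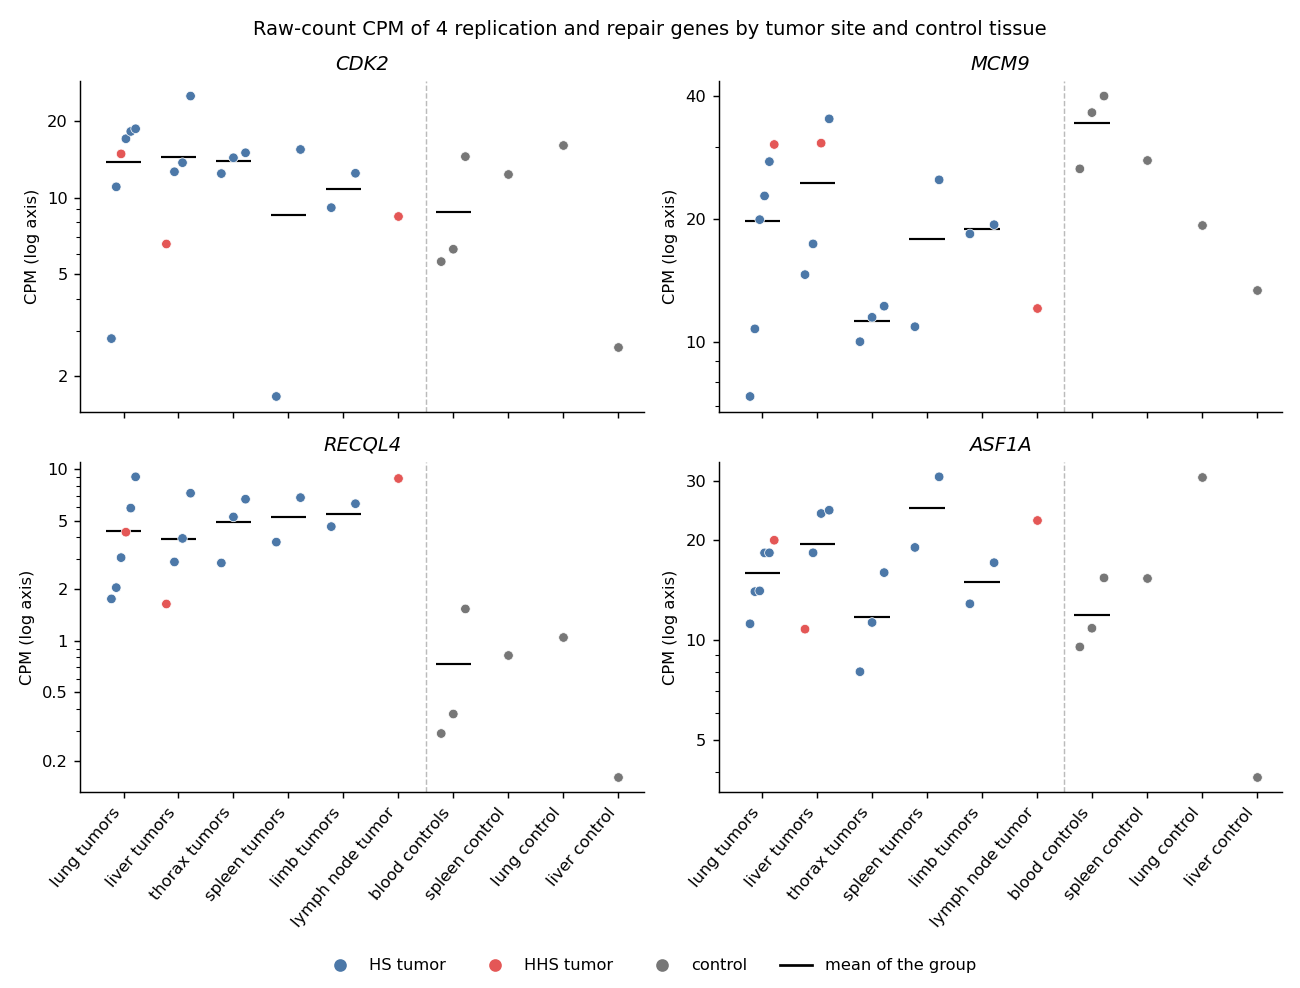
Raw-count CPM (log axes, which differ between panels) of *CDK2*, *MCM9*, *RECQL4* and *ASF1A* in the 18 tumors by site and in the 6 controls. Each point is 1 library, blue for HS, red for HHS and gray for controls, and black lines are group means. All 18 tumors lie above all 6 controls for *RECQL4*, from 1.64 CPM upward against at most 1.53 CPM, whereas tumors and controls overlap for the other genes.

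*MCM9* was lower in most tumors than in the blood controls. The tumors ranged from 7.38 CPM in HS27 over a median of 17.9 CPM to 35.2 CPM in HS50. The blood controls had 26.5, 36.4 and 39.96 CPM, the spleen control 27.97 CPM and the lung control 19.3 CPM. No tumor lay above the highest control, 10 of 18 lay below the lowest of the 5 controls, and 14 lay below all 3 blood controls.

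In all tumors against the 5 controls the log2FC of *MCM9* was -0.62 (SE 0.275, adjusted p = 0.0957, edgeR), and the mean CPM was 0.622 times that of the controls. The difference did not pass the test, and both the controls and the tool changed that call. Set against only the blood libraries, the log2FC was -0.87 (adjusted p = 0.0425), where 12.6% of all genes passed lower. Set against only spleen and lung, it was -0.14 (adjusted p = 0.874). DESeq2 with all 5 controls gave -0.70 (adjusted p = 0.0413), where 16.3% of genes passed lower and 16.4% higher.

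Blood differed from the tumors in marker genes of other cells as well. All 5 of the 5 T and NK cell markers (*CD226*, *THEMIS*, *IL2RB*, *GRAP2* and *TCF7*) were higher in each blood control than in any tumor. Their summed level was 617 to 1096 CPM in blood, 246 CPM in the spleen control, 35.2 CPM in the lung control and 14.6 to 228 CPM in the tumors. Of the 5 myeloid markers, 4 had a higher mean in blood than in the tumors and 3 lay above every tumor, with summed levels of 13129 to 17505 CPM in blood and 1906 to 24367 CPM in the tumors (median 5709 CPM). Among the tumors, HS50 had the highest T and NK cell sum and the most *MCM9*. HS46 had a sum of 97.4 CPM with 30.7 CPM of *MCM9*, and HS14 had 16.9 CPM with 12.3 CPM. In contrast, HS35 had the lowest sum with 27.6 CPM of *MCM9*, and HS34 had a sum of 84.3 CPM with 18.4 CPM of *MCM9*. These are single tumors, and the relation over the 18 tumors was not tested. The markers' part in the *MCM9* difference was not tested. For *RECQL4*, the log2FC was 2.82 (SE 0.626) against blood and 2.59 (SE 0.690) against spleen and lung. Both values share the 18 tumors, and the markers' part in them was not tested either.

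*CDK2* overlapped between tumors and controls, with a wider range in the tumors, and the difference did not pass the test. Its level ran from 1.65 CPM in HS29 over a median of 13.2 CPM to 25.1 CPM in HS33. The blood controls had 5.61, 6.28 and 14.5 CPM, the spleen control 12.4 CPM and the lung control 16.1 CPM. Only 4 tumors lay above all 5 controls and 2 lay below all of them. The log2FC was 0.36 (SE 0.375, adjusted p = 0.495, edgeR), and it was 0.59 with only the blood controls and 0.06 with only the solid organs.

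The spread of *CDK2* among tumors was set by a pair of libraries, the spleen tumor HS29 with 1.65 CPM and the lung tumor HS27 with 2.80 CPM. The other 16 tumors lay between 6.58 and 25.1 CPM, so that the highest was 3.82 times the lowest instead of 15.2 times. The same libraries were not low in all 4 genes. HS27 had the lowest *MCM9* of all tumors and the third-lowest *RECQL4* at 2.04 CPM, but its *ASF1A* of 18.2 CPM was near the middle. HS29 had the highest *ASF1A* at 30.9 CPM and a middling *RECQL4* of 3.75 CPM. Without HS27 and HS29, a choice made after seeing the data, the log2FC of *CDK2* was 0.46 (SE 0.273, adjusted p = 0.220), that of *MCM9* was -0.59, that of *RECQL4* 2.72 and that of *ASF1A* 0.11.

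*ASF1A* overlapped between tumors and controls as well. The tumors ranged from 7.999 CPM in HS37 over a median of 17.6 CPM to 30.9 CPM in HS29. The blood controls had 9.50, 10.8 and 15.3 CPM, the spleen control 15.4 CPM and the lung control 30.8 CPM. On plain CPM, all tumors but 1 thus lay below the lung control, and 11 of 18 lay above all 3 blood controls. The log2FC was 0.29 (SE 0.307, adjusted p = 0.504, edgeR), with 0.63 when only blood served as control and -0.13 when only spleen and lung did, so that its direction depended on the control tissue. Also on plain CPM, all 6 lung tumors, from 11.2 to 19.9 CPM, lay below the lung control. Both spleen tumors lay above the spleen control and all 4 liver tumors above the liver control of 3.85 CPM. The TMM factors were 1.335 for the lung control and 0.368 for the liver control. Dividing by them lowers the lung control and raises the liver control, which narrows these gaps. The orders are therefore given for plain CPM only. With 1 control per organ they were not tested. In the RefSeq annotation of another dog assembly (UU_Cfam_GSD_1.0), *ASF1A* lies within the span of *MCM9*. The sources do not state whether the counting used strand, so reads of these genes may be shared in part.

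**Figure D2:**
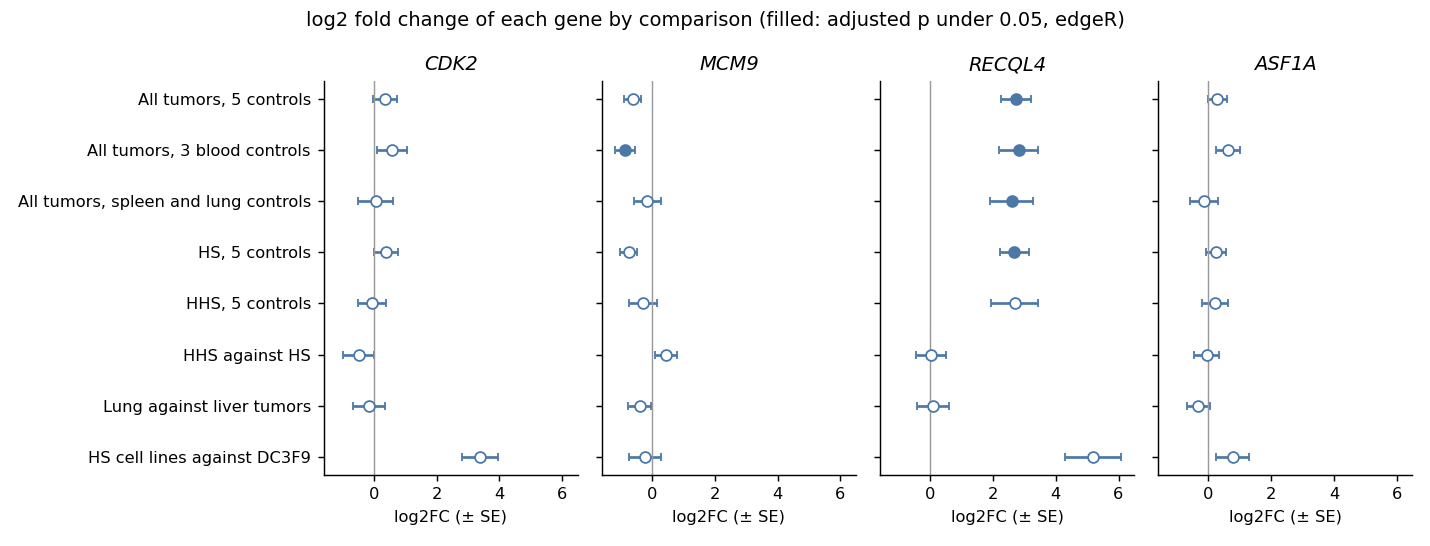
log2FC with its standard error (edgeR, TMM) for the 4 genes in 8 comparisons, 3 of them all tumors against different sets of controls. Filled points passed an adjusted p under 0.05. *RECQL4* lies at 2.59 to 2.82 against each set of controls and at 5.18 in the cell lines, whereas *CDK2* and *ASF1A* stay within 1 of 0 in the tumor comparisons.

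HS and HHS were compared with the same 5 controls and therefore share them. In the 15 HS tumors the log2FC of *RECQL4* was 2.68 (SE 0.466, adjusted p = 5.2e-04, edgeR), past the limits used for this comparison (an absolute log2FC over 1.5 and an adjusted p under 0.05), which 6.97% of genes passed with HS higher. *MCM9* had -0.74 (adjusted p = 0.0503) and lay just outside the test, *CDK2* had 0.39 (adjusted p = 0.487) and *ASF1A* 0.26 (adjusted p = 0.577).

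The 3 HHS tumors had 1.64, 4.29 and 8.88 CPM of *RECQL4*, in the liver tumor HS46, the lung tumor HS53 and the lymph node tumor HS41. They spanned nearly the whole range of the HS tumors, 1.75 to 8.998 CPM, with HS46 just below it. Against the controls their log2FC was 2.69 (SE 0.739, adjusted p = 0.127, edgeR, unadjusted p = 0.00607) and did not pass the test, which 0.123% of genes passed with HHS higher, while 20.2% had an unadjusted p under 0.05. All 3 lay above all 5 controls, as in 6.63% of all genes. DESeq2 gave 2.75 with an adjusted p of 0.00287, where 6.55% of genes passed higher.

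The other genes of HHS lay inside the HS range in all 3 tumors. *MCM9* had 30.7, 30.4 and 12.1 CPM in HS46, HS53 and HS41, *CDK2* 6.58, 14.9 and 8.49 CPM, and *ASF1A* 10.7, 19.9 and 22.8 CPM. In HHS against HS, the log2FC was 0.44 (SE 0.350) for *MCM9*, -0.47 (SE 0.493) for *CDK2*, 0.02 (SE 0.484) for *RECQL4* and -0.05 (SE 0.392) for *ASF1A*, with adjusted p of 0.943 or more in edgeR. No gene of the 19853 tested passed in this comparison, 797 (4.01%) had an unadjusted p under 0.05, and DESeq2 passed 1. With 3 HHS tumors, each from a different organ, differences larger than these standard errors could also be missed. The log2FC of *MCM9* exceeded its standard error and still had an unadjusted p of 0.224 (edgeR).

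By site, the order of the mean levels differed between the genes. *RECQL4* was highest in the lymph node tumor (8.88 CPM) and then in limb (mean 5.45 CPM), spleen (5.28), thorax (4.92), lung (4.34) and liver tumors (3.92). The ranges of neighbouring sites overlapped except for the single lymph node tumor against the limb tumors. *MCM9* was highest in liver tumors (mean 24.5 CPM) and lowest in thorax tumors at 10.0, 11.5 and 12.3 CPM, the tightest site with several tumors besides the limb (18.4 and 19.4 CPM). The liver tumors were split, at 14.6, 17.4, 30.7 and 35.2 CPM. *CDK2* had means of 14.5 CPM in liver, 13.9 in thorax, 13.8 in lung, 10.8 in limb, 8.57 in spleen and 8.49 CPM in the lymph node tumor, all with overlapping neighbours. *ASF1A* was highest in spleen tumors (18.9 and 30.9 CPM) and lowest in thorax tumors (7.999, 11.3 and 15.9 CPM).

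None of these orders held up as a difference among the 6 sites. The edgeR F test over sites gave adjusted p of 0.900 for *CDK2*, 0.770 for *MCM9*, 0.919 for *RECQL4* and 0.747 for *ASF1A*, and 0.261% of all genes passed it. In lung against liver tumors the log2FC was -0.16 (SE 0.507) for *CDK2*, -0.39 (SE 0.372) for *MCM9*, 0.09 (SE 0.517) for *RECQL4* and -0.31 (SE 0.381) for *ASF1A*, all with adjusted p of 0.975 or more. No gene of 22644 passed there, 1421 (6.28%) had an unadjusted p under 0.05, and DESeq2 passed 67. The 5 hepatocyte markers summed to 6468 CPM in the liver control, to 1.32 to 361 CPM in the liver tumors and to 108 to 1261 CPM in the lung tumors, while the most liver-restricted of them, *PLG*, was at 4615 CPM in the liver control, 78.2 CPM in HS33 and 0.738 CPM or less in the other 3 liver tumors. Their part in the levels by site was not tested.

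In culture, *RECQL4* and *CDK2* stood above the dendritic cell strain. *RECQL4* had 25.0 CPM in BD, 39.2 CPM in OD and 18.3 CPM in PJ against 0.549 CPM in DC3F9, that is 45.6, 71.4 and 33.3 times its level. *CDK2* had 32.2, 40.3 and 33.6 CPM in BD, OD and PJ against 2.45 CPM, that is 13.1, 16.4 and 13.7 times. Both genes were highest in OD, and the 3 lines varied little in *CDK2*, with an SD of 4.32 CPM around a mean of 35.3 CPM.

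DC3F9 is a single library, so the test rests on the spread among the 3 lines and assumes that DC3F9 varies alike. The log2FC was 5.18 (SE 0.896) for *RECQL4* and 3.38 (SE 0.577) for *CDK2*, with unadjusted p of 0.00252 and 0.00238 and adjusted p of 0.117 and 0.115 in edgeR. No gene of the 18121 tested passed in edgeR, and 15.4% had an unadjusted p under 0.05 in either direction. DESeq2 passed both genes, with adjusted p of 4.3e-09 for *RECQL4* and 6.1e-08 for *CDK2*, along with 5.85% of all genes that it passed higher in the lines. All 3 lines lay above DC3F9 in 46.3% of genes, so that the order alone says little about the 4 genes.

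*ASF1A* was 31.7, 20.5 and 25.4 CPM in BD, OD and PJ against 10.9 CPM in DC3F9, and its log2FC was 0.77 (SE 0.536, adjusted p = 0.536, edgeR). *MCM9* was nearly level, at 15.8, 20.3 and 15.7 CPM against 14.5 CPM. Its log2FC was -0.22 (SE 0.520, adjusted p = 0.865) with TMM factors and 0.25 on library totals, so that its direction depended on the scaling. The median log2FC of all genes was 0.23 with TMM factors and 0.69 on library totals. In CPM, the lines had 1.88 to 2.90 times the *ASF1A* and 1.08 to 1.40 times the *MCM9* of DC3F9, and the difference between the genes was not tested.

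**Figure D3:**
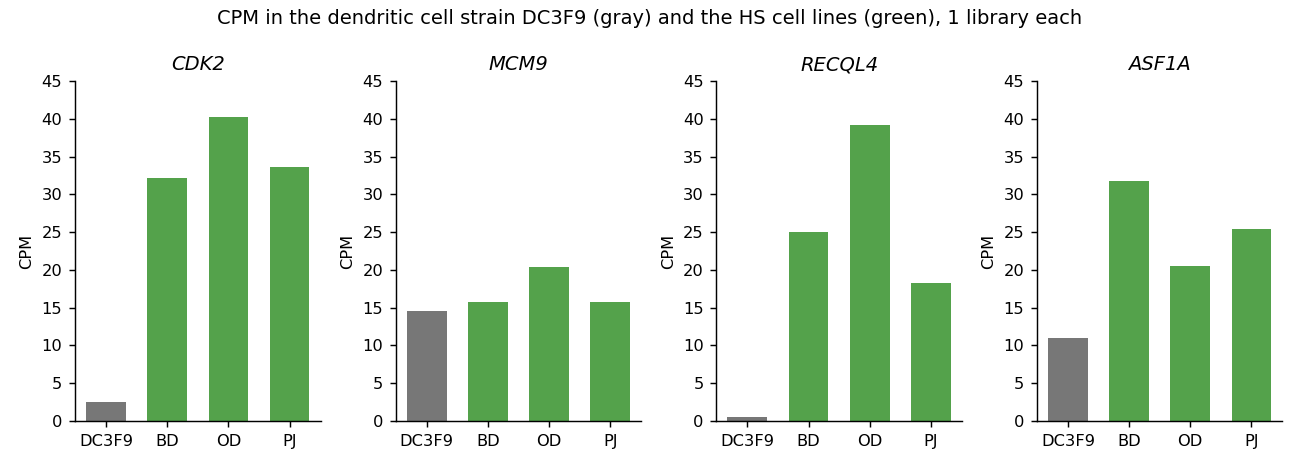
CPM of the 4 genes in DC3F9 (gray bar) and in BD, OD and PJ (green bars), with 1 library per bar and no error. *RECQL4* (18.3 to 39.2 CPM) and *CDK2* (32.2 to 40.3 CPM) are above DC3F9 (0.549 and 2.45 CPM), and *MCM9* is close to it.

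The lines can be read beside the tumors only as values, because they were counted in another table, and the methods name an mRNA kit for them where the labels name a total RNA kit. All 3 lines had more *RECQL4* and *CDK2* than any of the 18 tumors, with a lowest line of 18.3 CPM against a highest tumor of 8.998 CPM for *RECQL4*, and 32.2 against 25.1 CPM for *CDK2*. *MCM9* of the lines lay inside the tumor range, above 8 to 12 of the 18 tumors. *ASF1A* lay above 14 of them in OD, 17 in PJ and all 18 in BD. Kit, counting table and growth in culture cannot be told apart here.

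Across the 18 tumors, *MCM9* and *RECQL4* tended to run against each other. On log2 CPM with TMM factors, Pearson's r was -0.55 (permutation p = 0.0192, adjusted p = 0.115 over the 6 pairs of genes) and Spearman's rho was -0.47 (permutation p = 0.0493, adjusted p = 0.296), both two-sided. Without HS50 and HS27, the tumors farthest from the median of *MCM9*, r was -0.69 (permutation p = 0.00259, adjusted p = 0.0155). With RLE factors r was -0.55 in all tumors, but there the farthest tumors were HS50 and HS46, without which r was -0.35 (permutation p = 0.181, adjusted p = 0.992). On library totals r was -0.20. The relation failed the adjustment over the 6 pairs in all tumors, and it depended on the scaling of the libraries and on which 2 tumors were left out. HS52 and HS41 had the most *RECQL4* with little *MCM9* (10.8 and 12.1 CPM), and HS46 had the least *RECQL4* with much *MCM9* (30.7 CPM). All 18 tumors share the same code at the start of their column names.

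**Figure D4:**
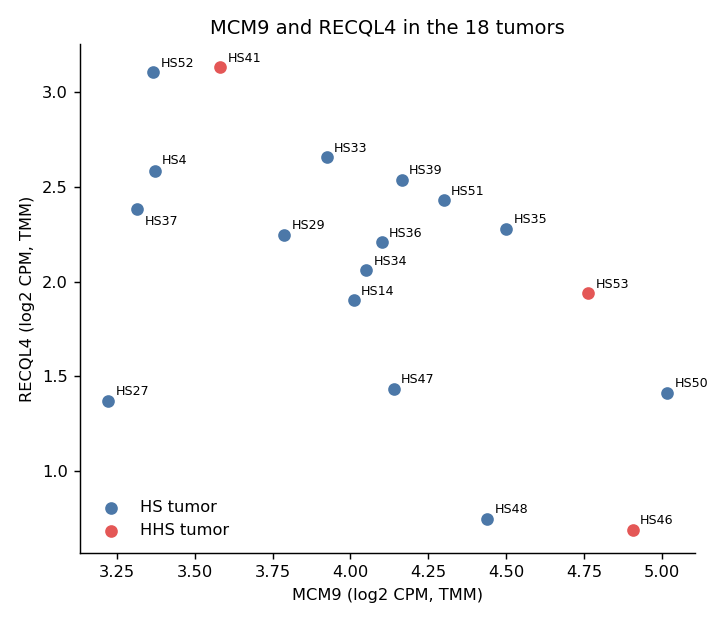
*MCM9* (horizontal) and *RECQL4* (vertical) as log2 CPM with TMM factors in the 18 tumors, blue for HS and red for HHS, each named. The points fall from upper left to lower right (Pearson's r -0.55), and HS27 lies apart at the lower left, low in both.

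None of the other 5 pairs had an unadjusted p under 0.05. *CDK2* and *ASF1A* had r of -0.44 (permutation p = 0.0665), but the relation rested on HS29 and HS27, without which r was 0.22. *MCM9* and *ASF1A*, which overlap in the annotation, had r of -0.11 (permutation p = 0.661), and the remaining pairs had r from 0.07 to 0.25.

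The genes whose pattern over the 18 tumors was most like that of each member were sought among 923 genes. These were the ones with a dog symbol out of the 19028 expressed genes. They share the libraries and their scaling, and the rho values are a description. *CDK2* was closest to *CS* (citrate synthase, rho 0.89), *MARS* (methionyl-tRNA synthetase, rho 0.81) and *C1H9orf64* (rho 0.77). *CS* and *MARS* lie on the same chromosome as *CDK2* in RefSeq, with 16 and 55 protein-coding genes in between. *MCM9* was closest to *GOPC* (rho 0.90), a Golgi-associated scaffold protein, *ERCC6L2* (rho 0.87), a helicase-like DNA repair gene among the listed repair genes, and *PEX3* (rho 0.87), a peroxisome assembly protein.

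All 3 genes closest to *MCM9* lie on its own chromosome, and *GOPC* is separated from it by 5 protein-coding genes. Of the 918 compared genes with a position, 26.3% lie on that chromosome, 26.8% on that of *CDK2* and 13.4% on that of *RECQL4*. The compared genes are thus not spread evenly over the chromosomes. Those on the chromosome of *MCM9* had a median rho with it of 0.29 against -0.03 for those elsewhere. For *CDK2* the same medians were -0.06 and 0.05, and for *ASF1A*, on the same chromosome as *MCM9*, 0.003 and -0.07. *ASF1A* was closest to *TXNL1* (rho 0.83), a thioredoxin-like protein, *TIMM21* (rho 0.73), a mitochondrial import protein, and *FGFR1OP* (rho 0.73), a centrosomal protein. *TXNL1* and *TIMM21* also lie on the chromosome of *ASF1A*, with 228 and 286 protein-coding genes in between, and *FGFR1OP* was not placed. *RECQL4* was closest to *IL20RA* (rho 0.78), a cytokine receptor chain, *PRRT1* (rho 0.75) and *GTSE1* (rho 0.73), a protein of the G2 and S phases, none of them on its chromosome. The 20 genes within 50 protein-coding genes of *RECQL4* nevertheless had a median rho of 0.35 with it (-0.22 to 0.59), against -0.02 for genes on other chromosomes. The median of such near genes was 0.30 for *MCM9*, 0.12 for *CDK2* and -0.08 for *ASF1A*. For *MCM9*, genes farther away on its chromosome had 0.29.

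Of 17 other replication and repair genes, 4 rose in all tumors against controls and 0 fell at an adjusted p under 0.05 (edgeR), against 12.96% and 14.2% of all genes. Their median log2FC was 0.14, beside -0.01 over all genes tested. These 17 could come only from the 1025 identifiers with a dog symbol, so they are a limited part of the replication and repair genes. Of the 7 replication genes, *DSCC1*, a subunit of a clamp loader that acts in sister chromatid cohesion, *TIMELESS*, which protects the fork, and *MTBP*, which helps to fire origins, rose, and of the 10 repair genes *DMC1*, the recombinase of meiosis, rose. None of the 4 passed the stricter limits for this comparison. The counts moved with the scaling and the adjustment, to 3 up and 2 down (*RRM2B* and *SHPRH*, named after their values were seen) with RLE factors, 4 up and 2 down with DESeq2, and 1 up and 0 down with the Benjamini-Yekutieli adjustment.

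*DSCC1* ranged from 2.26 to 24.3 CPM in tumors with a median of 17.2 CPM. The controls had 1.70, 5.41 and 6.78 CPM in blood, 5.57 CPM in lung and 7.81 CPM in spleen. Its log2FC was 1.68 (SE 0.399, adjusted p = 0.00368), and the groups overlapped through HS29, HS27 and HS39. *TIMELESS* had a log2FC of 0.97 (adjusted p = 0.0149) and *MTBP* one of 0.65 (adjusted p = 0.0388). *DMC1* was scarce, with 0 counts in all 3 blood controls, 0.0466 CPM in spleen and 0.306 CPM in lung, and 0.120 to 11.7 CPM in the tumors with the highest in HS50. Its log2FC was 5.44 (SE 1.34, adjusted p = 0.00485), a value set by a few counts in the controls: it was 7.77 without the lung control and 4.13 with spleen and lung alone. With the spleen and lung controls alone, none of the 4 passed (adjusted p from 0.0968 for *DMC1* to 0.458 for *MTBP*).

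In HS against the same controls 3 of the 17 rose and 1 fell, where 11.9% of all genes rose and 13.9% fell, and 2 of the risers, *DSCC1* (log2FC 1.64, adjusted p = 0.00886) and *DMC1* (5.40, adjusted p = 0.00981), passed both cutoffs. The gene that fell was *RRM2B* (log2FC -1.28, adjusted p = 0.0257), with a median of 16.7 CPM in HS against 37.8 CPM in the controls. It encodes a subunit of ribonucleotide reductase that supplies nucleotides for repair, and it is counted here among the replication genes. *RRM2B* no longer passed without blood control 1 (adjusted p = 0.0537) or blood control 2 (adjusted p = 0.131), and with spleen and lung as the only controls, or with the Benjamini-Yekutieli adjustment, none of the 17 passed in HS. In HHS against controls, HHS against HS, lung against liver tumors and the F test over sites none of the 17 passed in edgeR, with unadjusted p under 0.05 in 4, 0, 0 and 1 of them, beside 20.2%, 4.01%, 6.28% and 9.57% of all genes.

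The libraries lowest in *CDK2* were low in many genes. HS29 was among the 2 lowest of the 18 tumors in 27.3% and HS27 in 23.0% of the 19028 expressed genes on plain CPM, and in 21.3% and 16.4% with TMM factors. Of the listed genes, HS29 was on plain CPM among the 2 lowest tumors in 5 of the 7 replication genes (*TIMELESS*, *DSCC1*, *MTBP*, *RRM2B* and *RAD21*) and in 3 of the 10 repair genes, and among the 2 highest in 1, *POLI*, likewise named after its values were seen. HS27 was among the 2 lowest in 3 of the 7 and in 6 of the 10. The TMM factors of HS29 and HS27 were 0.791 and 0.792, below those of all other tumors but HS14, and the fits divide by these factors, which raises their levels relative to plain CPM.

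In the cell lines none of the 17 passed in edgeR, and 3 had an unadjusted p under 0.05, beside 15.4% of all genes. The median log2FC of the 17 was 0.54, beside 0.23 over all genes, with 12 positive and 5 negative values. *DSCC1* had 44.5, 44.5 and 32.6 CPM in BD, OD and PJ against 1.61 CPM in DC3F9, with a log2FC of 4.18 (adjusted p = 0.0992, edgeR). *MTBP* had a log2FC of 2.71 (adjusted p = 0.183). DESeq2 passed both and 1 repair gene, so 3 of the 17, beside 5.85% of all genes that it passed higher. *TIMELESS* had 61.0 to 101 CPM in the lines against 63.2 CPM in DC3F9, with a log2FC of -0.15 (adjusted p = 0.893).

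**Figure D5:**
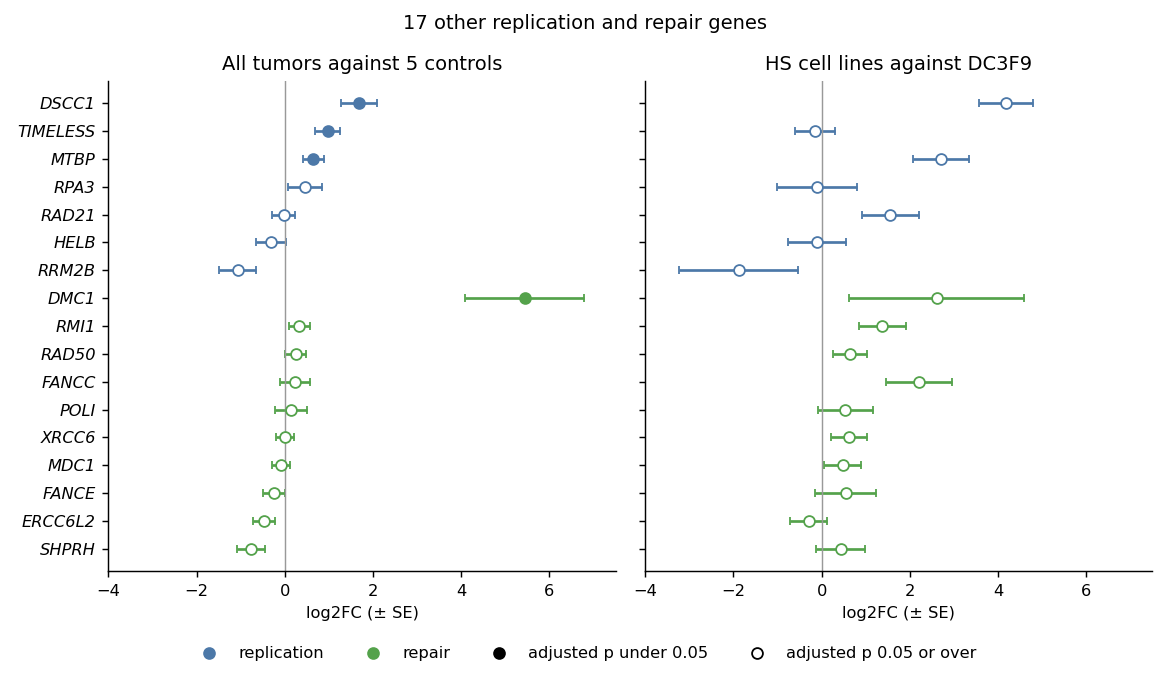
log2FC with its standard error (edgeR, TMM) of 7 replication genes (blue) and 10 repair genes (green) in all tumors against 5 controls (left) and in the HS cell lines against DC3F9 (right). Filled points passed an adjusted p under 0.05: *DSCC1*, *TIMELESS*, *MTBP* and *DMC1* on the left and none on the right.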

How the data were processed

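RNA of 18 tumors, 6 controls and 4 cultures was sequenced, and the authors deposited raw counts per Ensembl gene, in one table for tissues and blood and another for cultures. The submitters' processing notes name cutadapt 3.7, FastQC 0.11.9, STAR 2.7.10a, HTSeq 2.0.0 and DESeq2 1.20 with the CanFam3.1 genome. The strand option of the counting is not given in the sources used here. Groups were taken from the sample labels. Symbols came from the readable part of the supplementary gene lists, which pair 1025 identifiers with a dog symbol, and 4 of the 4 members matched RefSeq by symbol. The authors' fold changes and p-values in those lists were not used.

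Counts were filtered with filterByExpr, scaled by TMM factors and tested with the quasi-likelihood test of edgeR 4.0.16 (limma 3.58.1, R 4.3.3) on the groups of each comparison, with Benjamini-Hochberg adjustment. Log2 CPM used a prior count of 2. Cutoffs were an absolute log2FC over 1.5 with an adjusted p under 0.0005 for all tumors against controls, or under 0.05 otherwise. Alternatives were RLE factors, library totals, no filter, DESeq2 1.42.0, other control sets and leaving out replicates. Leaving out HS27 and HS29, HS51 or the lung libraries, and the Benjamini-Yekutieli adjustment named in the study's methods, alone or with DESeq2, were chosen after seeing the data. Correlations used 100000 permutations with scipy 1.17.1 and numpy 2.4.6 under Python 3.11.15; tables and plots used pandas 2.3.3 and matplotlib 3.10.9. The fits were tested on simulated data. The text names the 4 members, the 3 genes most like each over the tumors by Spearman's rho, and listed genes that passed the test. The members and lists were chosen with earlier results of these data known. The tumors are separate dogs, but p-values measure only the spread between these samples.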

Additional observations from a re-analysis of the deposited data

Results flagged for a closer look

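*ASF1A* was at 30.8 CPM in the lung control, against 9.50 to 15.4 CPM in the other 4 controls. Its gap to the nearest control, divided by the range of the 5 controls, was 0.725, above Dixon's critical value of 0.71. It was the only one of 12 groups tested to exceed its critical value, and chance alone gives such a value in about 5% of groups. Without the lung control the log2FC of *ASF1A* in all tumors was 0.57 (adjusted p = 0.202, edgeR), and without any lung library it was 0.65 (adjusted p = 0.206).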

How the results depend on the processing

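Of 575 alternative values, 506 kept their direction and side of the threshold and 28 reversed, all of these without passing a test; the cause was not tested. In all tumors against controls, 1 member passed an adjusted p under 0.05, and 2 did with DESeq2, blood controls only or all 6 controls. Past both cutoffs 1 became 0 with library totals, blood only, spleen and lung only, no lung libraries or the Benjamini-Yekutieli adjustment, and leaving out 1 replicate gave 0 to 1 (0 without blood control 1 or 2, the lung or the spleen control). In HS against controls, 1 became 2 with RLE factors, DESeq2, blood only or 6 controls, and leave-one-out gave 1 to 2 (2 without the lung control). DESeq2, with either adjustment, gave 1 instead of 0 in HHS against controls and 2 instead of 0 in the cell lines, by either rule. For correlations, 1 pair passed instead of 0 without the 2 farthest tumors. With spleen and lung controls only, *ASF1A* was -0.13 (all tumors), -0.12 (HS) and -0.14 (HHS), and *MCM9* in HHS was 0.26. *CDK2* in HHS was 0.19 against blood only. Leave-one-out ranges in HHS against controls were -0.33 to 0.13 (*CDK2*), -0.56 to 0.044 (*MCM9*) and -0.014 to 0.54 (*ASF1A*). In HHS against HS they were -0.81 to 0.45 (*RECQL4*) and -0.33 to 0.21 (*ASF1A*), with *RECQL4* at -0.69 in lung and liver tumors with site as covariate and *ASF1A* at 0.057 on library totals. In lung against liver tumors they were -0.39 to 0.15 (*CDK2*) and -0.32 to 0.45 (*RECQL4*), with *RECQL4* at -0.15 in HS only. *MCM9* was 0.25 in the cell lines on library totals. Without the 2 farthest tumors r was -0.064 (*CDK2*, *MCM9*), -0.026 (*CDK2*, *RECQL4*) and 0.22 (*CDK2*, *ASF1A*), and in HS only 0.012 (*MCM9*, *ASF1A*) and -0.064 (*RECQL4*, *ASF1A*). Over all genes, the number past the cutoffs was 539 (21 to 1717) for all tumors, 3248 (1236 to 5095) for HS, 25 (0 to 3608) for HHS, 0 (0 to 4) for HHS against HS, 0 (0 to 65) for lung against liver, 59 (2 to 108) for sites and 0 (0 to 1796) for the cell lines. No paired analysis was possible because the labels tie no tumor to a control and replicate numbers only name samples. *RECQL4* in the liver control rests on 29 counts.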
